A study of Mus musculus with 9 samples.

Results

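Homologous recombination and replication checkpoint genes were followed here as 9 genes: Brca1, Brca2, Bard1, Rad54l, Topbp1, Nbn, Chek1, Blm and Mre11a. These genes, and the lists set beside them below, were chosen with earlier results of these data known. Shares over all probe sets given next to their counts therefore describe and do not test. Every probe set whose platform annotation gave exactly 1 gene symbol, and that symbol 1 of these 9, was taken. This gave 17 probe sets, of 20380 probe sets with 1 symbol and 12393 genes in all. Brca1 and Chek1 had 4 probe sets each, Rad54l had 3, and the other genes had 1 each.

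The RNA came from N1E-115, a mouse neuroblastoma cell line, on 9 arrays in 3 groups of 3. These were cells that overexpressed mouse Tcof1, cells in which Tcof1 was knocked down, and wildtype cells, each with arrays lettered A, B and C. Tcof1 encodes treacle, a factor of the nucleolus that promotes ribosomal RNA transcription and is known to bind the checkpoint protein encoded by Topbp1. How Tcof1 was raised or lowered, whether the modified cells were single clones, and whether letters stand for separate cultures were not stated in the labels. The p-values therefore cover array-to-array spread alone, and that spread may be technical. The question addressed is how the transcripts of these repair and checkpoint genes differ when Tcof1 is raised or lowered.

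Homologous recombination copies an intact sister DNA molecule to mend a broken one, and it works mainly in S and G2 phase, when a sister is present. The MRE11-RAD50-NBS1 complex processes the broken end, BRCA1 with BARD1 promotes resection, BRCA2 acts in the strand invasion step, and RAD54L and BLM act on the joined DNA that follows. At stalled replication forks, TOPBP1 activates the kinase ATR, which in turn activates the kinase CHEK1, and many of these genes are known to be transcribed most in S phase.

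The deposited intensities carry no detection calls, so dim probe sets stayed in. Array medians lay between 164.1 and 185.95 intensity units. All fold changes are on the log2(intensity + 16) scale, which understates changes of dim probe sets. Each is given ± SE from limma with Benjamini-Hochberg adjustment over 22626 probe sets, and an adjusted p under 0.05 counts as passing. Of the 3 Tcof1 probe sets, 1 passed higher in overexpressing over wildtype arrays (log2 fold change 0.87 ± 0.21, adjusted p = 0.0241), and none passed in knockdown over wildtype arrays, where values ran from -0.40 to 0.06. Knockdown arrays lay wholly below wildtype arrays on 1 of the 3, 1423600_a_at, at -0.22 (adjusted p = 0.744). In overexpressing over knockdown arrays 2 of the 3 passed, at 1.09 ± 0.21 (adjusted p = 0.0116) and 1.03 ± 0.20 (adjusted p = 0.0137). A lowering of Tcof1 below wildtype in the arrays labelled knockdown was thus not shown by the test. Of 14 neuroblast markers most were bright, with Th at the 96.0th and Phox2a at the 96.3th percentile of all probe sets. The neurofilament genes Nefl and Nefm, on the same list, were dim at the 13.7th and 14.7th percentile, and Gata3 stood at the 59.2th. The blood marker Ptprc was at the 12.5th percentile, but not all markers of other cell types were dim. In wildtype arrays the 6 blood markers summed to 394.9 to 504.4 intensity units. The 8 fibroblast markers summed to 4955.5 to 5286.6 there, and the 6 Schwann cell and glia markers to 7288.9 to 9935.2. In overexpressing over wildtype cells 2 of 14 neuroblast markers rose and 3 fell. Of the other cell types' markers 0 rose, and 1 of 8 fibroblast, 0 of 6 blood and 1 of 6 Schwann cell and glia markers fell. Of all probe sets tested, 4.52% were called higher and 5.07% lower in this comparison. Summed neuroblast marker intensity was 42087.8 to 46372.9 in overexpressing, 50352 to 54202.6 in knockdown and 48035.1 to 52974 in wildtype arrays.

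The 3 wildtype arrays differed among themselves on these genes more than the other arrays did. The summed intensity of the 17 probe sets was 3786.1, 3877.9 and 3564.2 in overexpressing arrays A, B and C, 2454.9, 2528.7 and 2424 in knockdown arrays, and 1472.5, 1934.6 and 2386.4 in wildtype arrays. Wildtype array C thus came close to the knockdown arrays, and wildtype array A lay furthest below. Wildtype array A gave the lowest wildtype value for 10 of the 17 probe sets, against 36.4% of all probe sets, and wildtype array C the highest for 9, against 30.3%. Such counts were as high among overexpressing arrays, where C was lowest for 10, against 34.7% of all, and B highest for 10, against 39.3%. What set the wildtype arrays apart was the sums and the median deviation from each probe set's own mean. Over the 17 probe sets that median ran from -0.58 to -0.14 (log2) in wildtype arrays. It ran from 0.41 to 0.59 in overexpressing and from -0.07 to 0.06 in knockdown arrays. Counts are therefore also given without these arrays.

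Promoter sequences are shown for the genes whose brightest probe set rose in overexpressing cells, with Mre11a beside them as a gene that did not pass. The sequences are from RefSeq on build GRCm38.p6, which held a window for 8 of the 9 genes. Each line gives 250 bases before the transcript start and 30 after it, 5′ to 3′ on the gene's strand. Capitals mark matches, on either strand, to TTTNGCGC or TTCNCGCC (E2F-like), CCAAT (the NF-Y box) or TTTGAA (the CHR element).
Topbp1, chr9:103305077-103305356, plus strand: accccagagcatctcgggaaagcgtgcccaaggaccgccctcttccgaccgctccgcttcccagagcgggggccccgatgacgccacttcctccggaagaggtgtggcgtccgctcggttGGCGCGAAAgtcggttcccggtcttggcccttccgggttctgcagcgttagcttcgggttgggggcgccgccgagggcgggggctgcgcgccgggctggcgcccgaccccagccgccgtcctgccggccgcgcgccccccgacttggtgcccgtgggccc
Brca1, chr11:101551926-101552205, minus strand: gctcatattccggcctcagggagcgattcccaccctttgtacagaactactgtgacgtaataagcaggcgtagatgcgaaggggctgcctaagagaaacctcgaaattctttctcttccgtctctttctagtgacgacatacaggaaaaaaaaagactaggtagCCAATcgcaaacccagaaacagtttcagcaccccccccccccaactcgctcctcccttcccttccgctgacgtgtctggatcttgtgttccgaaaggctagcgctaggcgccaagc
Blm, chr7:80534969-80535248, minus strand: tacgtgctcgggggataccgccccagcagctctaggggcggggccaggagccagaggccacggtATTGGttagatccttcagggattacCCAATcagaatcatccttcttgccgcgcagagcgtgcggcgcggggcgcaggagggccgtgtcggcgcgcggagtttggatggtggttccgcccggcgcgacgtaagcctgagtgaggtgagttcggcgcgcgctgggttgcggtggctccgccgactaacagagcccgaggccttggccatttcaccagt
Rad54l, chr4:116123661-116123940, minus strand: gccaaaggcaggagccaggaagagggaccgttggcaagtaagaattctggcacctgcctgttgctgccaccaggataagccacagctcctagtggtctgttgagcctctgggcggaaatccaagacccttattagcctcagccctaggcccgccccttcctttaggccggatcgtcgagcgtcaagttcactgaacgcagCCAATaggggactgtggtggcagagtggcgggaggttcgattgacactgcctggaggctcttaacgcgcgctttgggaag
Mre11a, chr9:14784404-14784683, plus strand: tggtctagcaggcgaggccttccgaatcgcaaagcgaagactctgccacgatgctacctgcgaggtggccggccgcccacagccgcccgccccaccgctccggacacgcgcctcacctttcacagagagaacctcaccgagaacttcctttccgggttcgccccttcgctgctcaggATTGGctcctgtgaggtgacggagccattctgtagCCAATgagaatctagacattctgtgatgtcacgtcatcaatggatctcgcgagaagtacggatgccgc

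Matches were counted in windows of 250 bases before and 50 after the start. TTTNGCGC was found in 1 of the 8 windows, Topbp1, and in 1.38% of 27025 promoter windows in all. TTCNCGCC was found in 2, Topbp1 and Chek1, against 3.67% in all. In Topbp1 both overlap in a single run of capitals on the strand opposite to the gene, 130 to 122 bases before the start. In Chek1 the match lay 42 to 49 bases after the start, outside the stretch that was printed for the other genes. CCAAT stood in 4 of 8 windows, Brca1, Rad54l, Blm and Mre11a, against 37.9% in all, and GGGCGG (the GC box, left in lower case) in 5, against 35.9%. TTTGAA was present in Bard1 only among the 8, against 18.1% in all. The GC content of the 8 windows ran from 53.7% to 73.7%, against a median of 52.7% over all promoter windows. The shares of matches were not adjusted for it. A match is a description of letters. CCAAT occurred both in genes that rose and in Mre11a, which did not pass.

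In overexpressing over wildtype cells, 7 of the 17 probe sets rose and 0 fell. Probe sets called higher made up 4.52% and called lower 5.07% of all probe sets tested. The 7 belonged to 5 of the 9 genes: Brca1, Topbp1, Blm, Rad54l and Chek1. The median log2 fold change over the 17 was 0.83, against -0.02 over all probe sets. At an unadjusted p under 0.05, 12 probe sets of 8 genes were higher and 0 lower, where 11.2% and 11.8% of all probe sets were. The overexpressing arrays lay wholly above the wildtype arrays for 11 probe sets, against 13.3% of all, and wholly below for 1, against 14.4%. Positive log2 fold changes were found for 15 of the 17, against 47.9% of all. With overexpressing array A or C or wildtype array A left out the count was 4, made up of 2 Brca1 sets, Topbp1 and Blm.

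**Figure D1:**
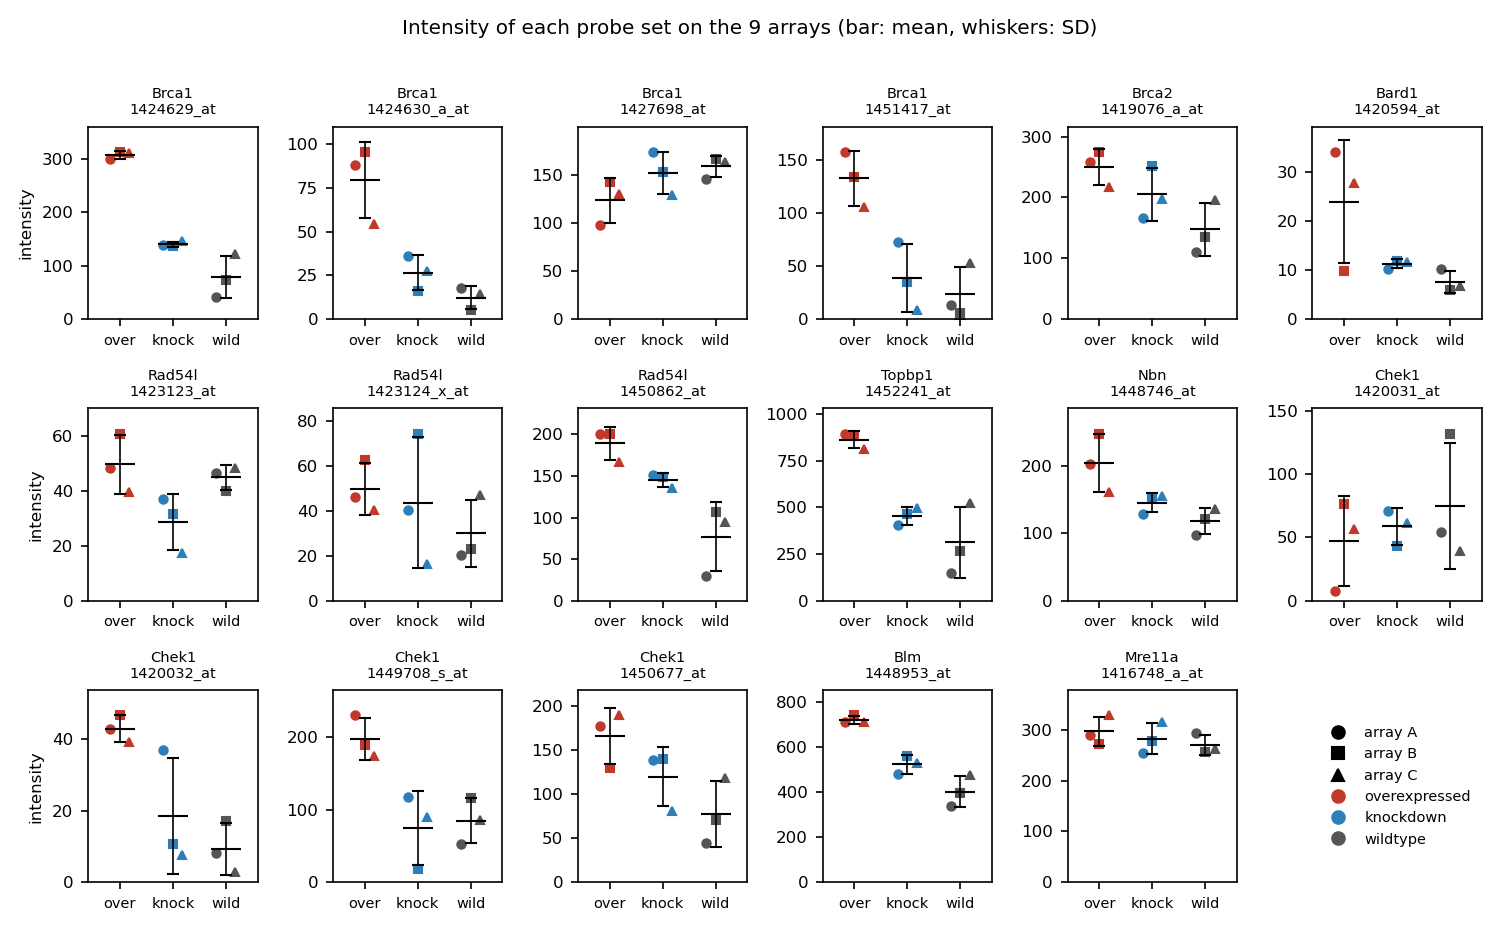
Intensity (linear units, axes from 0) of the 17 probe sets on the 3 overexpressing, 3 knockdown and 3 wildtype arrays, with bars for the mean and whiskers for the SD. Overexpressing arrays lie wholly above wildtype arrays in 11 panels, while Mre11a overlaps in all groups.

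Brca1, the tumour suppressor that directs resected ends into recombination, had the largest changes, on 3 probe sets that the annotation assigns to the same sequence record. Its brightest of these, 1424629_at, read 298.7, 312.5 and 310.9 in overexpressing arrays, 137.8, 135.8 and 145.4 in knockdown arrays and 41.7, 72.9 and 121.2 in wildtype arrays. The 3 groups did not overlap, and the wildtype arrays were the most scattered. It rose by 1.86 ± 0.28 in overexpressing over wildtype cells (adjusted p = 0.00266), a 3.63-fold difference on this scale. Set 1424630_a_at was dimmer, at 79.5 ± 21.9 in overexpressing, 26.6 ± 10.1 in knockdown and 12.2 ± 6.55 in wildtype arrays (SD, n = 3), and rose by 1.76 ± 0.29 (adjusted p = 0.00448). Set 1451417_at read 157.9, 134.6 and 106.1 in overexpressing arrays, 72.7, 35.4 and 8.6 in knockdown arrays and 13.3, 5.9 and 52.5 in wildtype arrays. It rose by 2.06 ± 0.50 (adjusted p = 0.0257), and its knockdown and wildtype arrays were widely scattered and overlapped. The call was lost when any single overexpressing array, or wildtype array A or B, was left out, and without the mean-variance trend (adjusted p = 0.0533).

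The fourth Brca1 probe set, 1427698_at, is assigned to another sequence record and did not follow the others. It read 97.4, 142.3 and 129.4 in overexpressing arrays, 173.5, 152.2 and 129 in knockdown arrays and 145.8, 166.4 and 163.2 in wildtype arrays. All overexpressing arrays were below all wildtype arrays, yet the difference did not pass (-0.34 ± 0.21, adjusted p = 0.387). Its 95% interval was -0.80 to 0.12, while those of the other 3 sets began at 0.96 or above. The probe sets of Brca1 thus disagree, and which transcript forms each matches was not tested.

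Bard1, whose product pairs with BRCA1 in a ubiquitin ligase, was among the dimmest, at the 9.40th percentile of all probe sets. It read 34.2, 9.9 and 27.9 in overexpressing arrays, 10.2, 11.9 and 11.7 in knockdown arrays and 10.2, 6 and 6.7 in wildtype arrays. Overexpressing array B lay among the other groups, and the difference from wildtype did not pass (0.71 ± 0.25, adjusted p = 0.105). Without that array it passed (0.99, adjusted p = 0.0234), the 1 of 17 alternatives in which it did. These readings are near or below the 16 added before the log.

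Brca2, which acts in strand invasion, read 258.2, 275 and 217.7 in overexpressing arrays, 165.7, 252 and 197.5 in knockdown arrays and 110.9, 135.7 and 195.6 in wildtype arrays. Overexpressing arrays were all above wildtype arrays, with wildtype array C only a little below the lowest of them. The log2 fold change of 0.73 ± 0.23 did not pass (adjusted p = 0.0726). It passed under 3 of 18 alternatives: without wildtype array C (adjusted p = 0.0278), with array weights (adjusted p = 0.0446) and when dimmer probe sets were not tested (adjusted p = 0.0315).

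Rad54l encodes a motor protein that drives strand exchange. Its brightest probe set, 1450862_at, read 200.9, 200.1 and 166.6 in overexpressing arrays, 150.8, 149.1 and 135.5 in knockdown arrays and 30.1, 106.8 and 94.5 in wildtype arrays. No group overlapped another, and wildtype array A stood far below the rest. It rose by 1.26 ± 0.33 (adjusted p = 0.0377). The call was kept under 10 of 18 alternatives. It was lost without the mean-variance trend (adjusted p = 0.0600), and when any single overexpressing or knockdown array, or wildtype array A, was left out. Without wildtype array A the log2 fold change was 0.81. Of the 2 dimmer sets, 1423124_x_at averaged 49.7 ± 11.4 in overexpressing, 43.6 ± 29.2 in knockdown and 29.9 ± 14.8 in wildtype arrays (SD, n = 3) and did not pass (0.55 ± 0.37, adjusted p = 0.452). Set 1423123_at averaged 49.7 ± 10.7 in overexpressing, 28.7 ± 10.3 in knockdown and 45.0 ± 4.56 in wildtype arrays and gave 0.10 ± 0.25 (adjusted p = 0.892). All 3 sets are assigned to the same sequence record.

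Blm encodes the RecQ helicase that unwinds recombination intermediates and is mutated in Bloom syndrome in humans. It read 709, 740.3 and 710.8 in overexpressing arrays, 479, 562 and 528.4 in knockdown arrays and 336.8, 394.7 and 474.9 in wildtype arrays. The 3 groups were fully separated, though wildtype array C came within a few units of the lowest knockdown array. Blm rose by 0.83 ± 0.13 (adjusted p = 0.00358), which is a 1.78-fold difference, and passed under all 18 alternatives tried.

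The 9 genes include 2 of the end-processing complex. Nbn, which encodes its NBS1 subunit, read 202.9, 248.2 and 161.6 in overexpressing arrays, 129.1, 153.5 and 154.9 in knockdown arrays and 98, 122 and 135.9 in wildtype arrays. Overexpressing arrays were above all others, but the difference from wildtype did not pass (0.70 ± 0.21, adjusted p = 0.0657). It passed under 1 of 18 alternatives, when dimmer probe sets were not tested (adjusted p = 0.0292). Mre11a, the nuclease subunit, read 290.1, 271.3 and 328.1 in overexpressing arrays, 253.9, 278.4 and 315.1 in knockdown arrays and 292.8, 256 and 261.8 in wildtype arrays. The groups overlapped throughout, and the log2 fold change was 0.13 ± 0.15 (adjusted p = 0.706). The 95% interval of the Mre11a change was -0.20 to 0.45. The partner subunit gene Rad50, which is not among the 9, gave 0.26 ± 0.10 (adjusted p = 0.156).

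Topbp1, the activator of ATR, was the second brightest of the 17 probe sets. It read 895.9, 883 and 811.4 in overexpressing arrays, 404.5, 463.7 and 496.6 in knockdown arrays and 148.9, 265.1 and 524.2 in wildtype arrays. Overexpressing arrays were well above all others, while wildtype array C exceeded every knockdown array. Topbp1 rose by 1.59 ± 0.32 (adjusted p = 0.0118) and passed under all 18 alternatives, with the largest adjusted p at 0.0480.

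Chek1, the effector kinase of the replication checkpoint, had 4 probe sets that behaved differently. Its brightest, 1450677_at, read 177.9, 129.7 and 189.8 in overexpressing arrays, 138.9, 140.3 and 81.5 in knockdown arrays and 44.4, 71 and 118.1 in wildtype arrays. Overexpressing and wildtype arrays did not overlap, but 1.01 ± 0.32 did not pass (adjusted p = 0.0752). The set that passed, 1420032_at, was dim. It read 42.7, 46.5 and 39 in overexpressing arrays, 36.9, 10.7 and 7.6 in knockdown arrays and 8.2, 17 and 2.8 in wildtype arrays, and rose by 1.25 ± 0.32 (adjusted p = 0.0331). That call was lost when wildtype array A or C, or any single overexpressing array, was left out, and without the mean-variance trend (adjusted p = 0.0530). Set 1449708_s_at, whose suffix marks probes shared between transcripts, gave 1.12 ± 0.45 (adjusted p = 0.158), and 1420031_at gave -0.62 ± 0.51 (adjusted p = 0.55) with overexpressing array A at 7.7 and wildtype array B at 132. Sets 1420031_at, 1420032_at and 1449708_s_at are assigned to the same sequence record, and 1450677_at to another. The set that fell in value thus shares its record with the set that passed. With other settings 2 more of the 4 sets passed. Set 1450677_at did so under 3 of 18 alternatives: without wildtype array C (adjusted p = 0.0260), with array weights (adjusted p = 0.0439) and when dimmer probe sets were not tested (adjusted p = 0.0330). Set 1449708_s_at did so under 1 of 16, without knockdown array B (adjusted p = 0.0320).

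**Figure D2:**
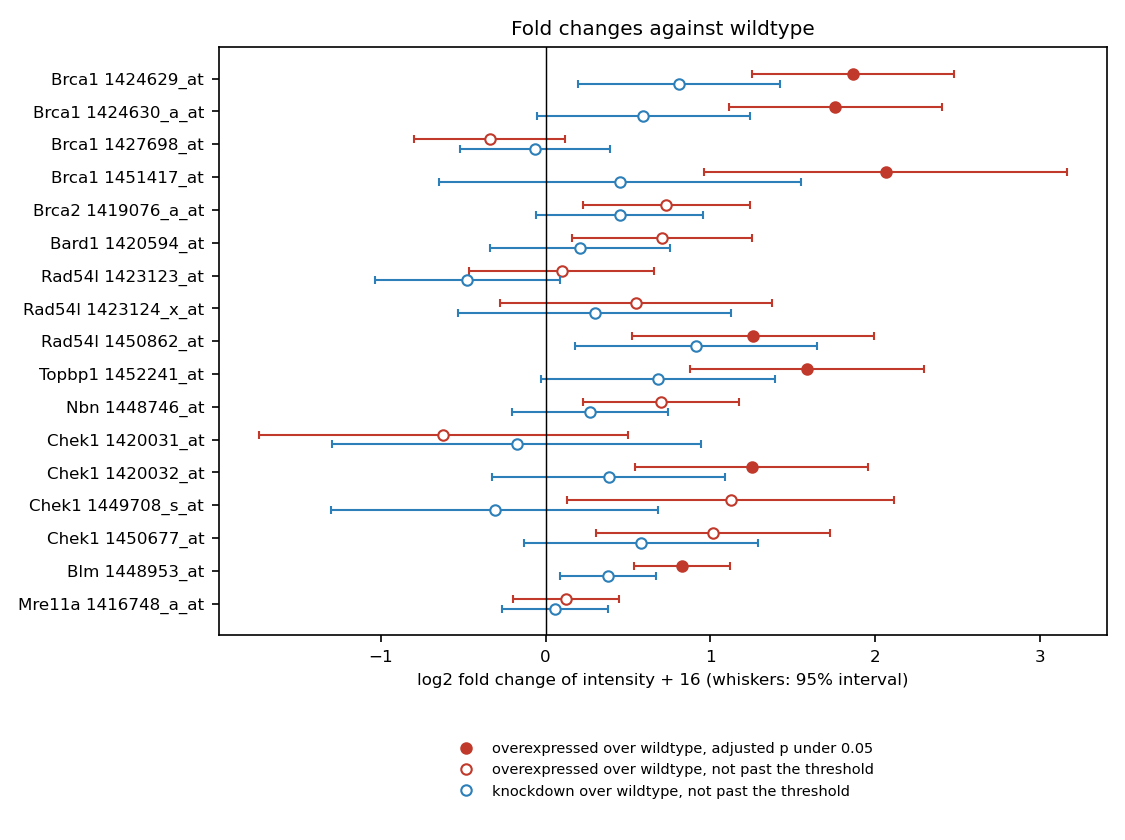
Log2 fold changes (points, with 95% intervals as whiskers) of the 17 probe sets in overexpressing over wildtype and knockdown over wildtype cells, with filled points for an adjusted p under 0.05. Filled points occur in overexpressing over wildtype cells for 7 probe sets and in knockdown over wildtype cells for 0.

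In knockdown over wildtype cells, 0 of the 17 probe sets passed in limma in either direction, and 0.00442% and 0.00884% of all probe sets were called higher and lower. At an unadjusted p under 0.05, 3 were higher and 0 lower, against 5.94% and 4.94% of all, and none of the alternatives called any of the 17. The median was 0.38, against 0.03 over all probe sets, and 13 of the 17 were above 0, against 54.5% of all. The 3 were Brca1 1424629_at at 0.81 ± 0.28 (adjusted p = 0.333), Rad54l 1450862_at at 0.91 ± 0.33 (adjusted p = 0.356) and Blm at 0.38 ± 0.13 (adjusted p = 0.342). In these 3 probe sets the knockdown arrays lay wholly above the wildtype arrays, as did 8.63% of all probe sets. With wildtype array A left out, Rad54l 1450862_at was at 0.47, Brca1 1424629_at at 0.49 and Blm at 0.26. Topbp1 was at 0.68 ± 0.32 (adjusted p = 0.481), with a 95% interval of -0.03 to 1.39, and with wildtype array A left out it was at 0.27, with wildtype array C left out at 1.12. Set 1423123_at of Rad54l was the 1 set with knockdown arrays wholly below wildtype arrays, at -0.47 ± 0.25 (adjusted p = 0.534), against 7.01% of all probe sets.

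Overexpressing over knockdown cells gave 2 probe sets that passed higher and 0 lower, where 3.43% and 4.14% of all probe sets were called. Those calls were 776 higher and 937 lower, against 815 and 614 with a common array median, under which the count among the 17 was also 2. The 2 that passed were of Brca1, 1424629_at at 1.05 ± 0.28 (adjusted p = 0.0441) and 1424630_a_at at 1.16 ± 0.29 (adjusted p = 0.0366). The count was 0 without overexpressing array A or B or knockdown array B or C, 1 without overexpressing array C or wildtype array B, 4 with wildtype array A left out and 5 with wildtype array C left out. Without knockdown array A it was also 2, but of other sets: both Brca1 calls were lost (adjusted p = 0.110 and 0.0516), and Brca1 1451417_at and Chek1 1420032_at passed. Blm and Topbp1 were at 0.45 ± 0.13 (adjusted p = 0.0645) and 0.90 ± 0.32 (adjusted p = 0.12), with overexpressing arrays wholly above knockdown arrays for both. That held for 10 of the 17 probe sets, against 12.9% of all, and the reverse for 0, against 15.2%. At an unadjusted p under 0.05, 8 were higher and 0 lower, against 10.7% and 11.8% of all, and 15 were above 0, against 44.3%. The median was 0.45, against -0.05 over all probe sets, and Mre11a gave 0.07 ± 0.15 (adjusted p = 0.839).

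The means were highest in overexpressing, intermediate in knockdown and lowest in wildtype arrays for 13 of the 17 probe sets, against 17.9% of all probe sets. The 3 wildtype arrays serve in both comparisons with wildtype, so the low wildtype array A enters each. The exceptions to this order were Brca1 1427698_at, Rad54l 1423123_at, and Chek1 1420031_at and 1449708_s_at.

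Across the 9 arrays the genes differed in how closely they moved together. The brightest probe set of Blm had a Pearson r of 0.99 with the mean of the other 8 genes, Brca1 0.98 and Topbp1 0.96, while Bard1 had 0.65 and Mre11a 0.28. After the group means were removed, the values were 0.91 for Blm, 0.84 for Brca1 and 0.89 for Topbp1, against -0.13 for Bard1 and -0.34 for Mre11a. Between these lay Brca2 (0.89 before and 0.73 after), Chek1 (0.84 and 0.55), Rad54l (0.83 and 0.51) and Nbn (0.85 and 0.33). In Blm, Brca1 and Topbp1 the wildtype arrays were the most scattered and rose from A to B to C, which enters the values without group means. These describe 9 arrays that fall into 3 groups and share 1 scaling. Outside the 9 genes, the brighter probe sets most like their mean profile were of Mcm3, a subunit of the replicative helicase, with r = 0.99 (0.96 without group means), Nusap1, a spindle protein (0.98 and 0.89), Hddc2 (0.98 and 0.89), Anln, the cytokinesis protein anillin (0.98 and 0.88), Hacd1 (0.98 and 0.95) and Rwdd4a (0.98 and 0.85).

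Most markers of S phase and of G2 and mitosis also rose in overexpressing cells. Of all probe sets tested, 4.52% were called higher and 5.07% lower in overexpressing over wildtype cells. Of 17 S phase markers 16 rose and 0 fell in overexpressing over wildtype cells, with a median of 1.11, and of 17 G2 and mitosis markers 14 rose and 0 fell, with a median of 0.92. Mcm5, a helicase subunit, rose by 2.18 ± 0.22 (adjusted p = 0.000444) and the mitotic kinase gene Aurka by 1.08 ± 0.14 (adjusted p = 0.00164). In knockdown over wildtype cells 0 of either list passed, with medians of 0.50 and 0.49, against 0.03 over all probe sets. Of all probe sets, 0.00442% were called higher and 0.00884% lower there. At an unadjusted p under 0.05, 9 S phase markers were higher and 2 lower, and 13 G2 and mitosis markers were higher and 0 lower, against 5.94% higher and 4.94% lower of all probe sets. The 2 lower, named after their values were seen, were Cdt1 at -0.30 (adjusted p = 0.446) and Tyms at -0.82 (adjusted p = 0.394). Summed S phase marker intensity ranged from 31495.1 to 36438.6 in overexpressing, 19676.4 to 21912.6 in knockdown and 14437 to 18258.4 in wildtype arrays. For G2 and mitosis markers the ranges were 21494.6 to 23614.2, 16018.8 to 17796.5 and 8804.1 to 14376.2 in the same groups. In both lists wildtype array A was lowest and wildtype array C highest of the 3 wildtype arrays, as for the 9 genes. More cells in S phase and more RNA per cell cannot be told apart in bulk RNA, and the part of cell cycle phase in these results was not tested.

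**Figure D3:**
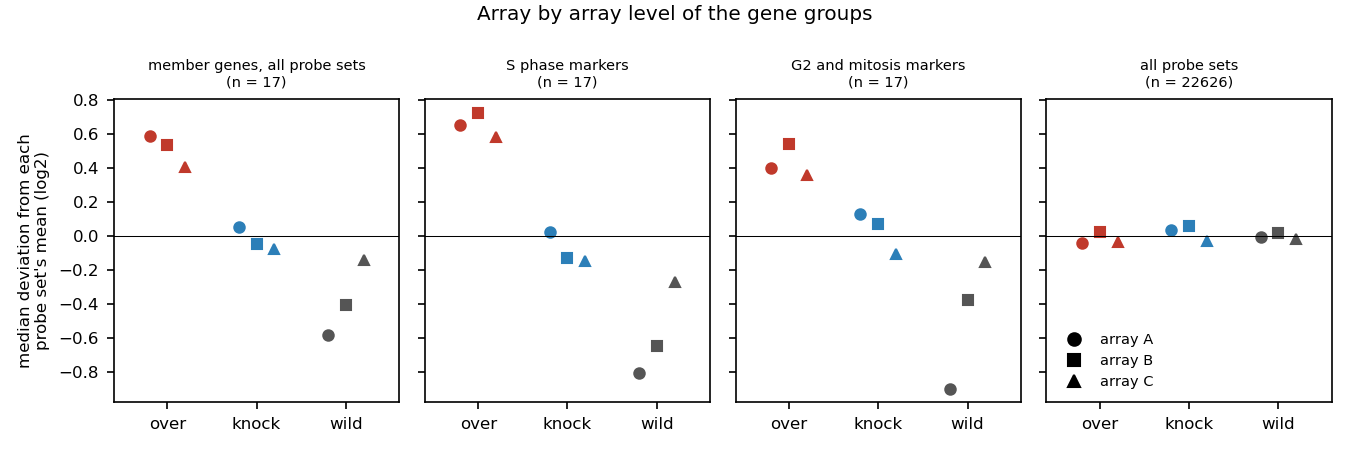
Median deviation from each probe set's own mean (log2 units) on each array, for the 17 probe sets of the 9 genes, 17 S phase markers, 17 G2 and mitosis markers and all 22626 probe sets. Overexpressing arrays are highest and wildtype array A lowest in the first 3 panels, while all probe sets stay between -0.04 and 0.06.

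Other genes of the same pathways were counted by the brightest probe set per gene. Over all probe sets tested, 4.52% were called higher and 5.07% lower in overexpressing over wildtype cells. Of 29 other homologous recombination and Fanconi genes measured, 7 rose and 1 fell in overexpressing over wildtype cells, with a median of 0.29. Exo1, a resection nuclease gene, rose by 1.45 ± 0.21 (adjusted p = 0.00255), and averaged 814.5 in overexpressing, 415.8 in knockdown and 288.8 in wildtype arrays. Dna2, another resection nuclease gene, rose by 1.45 ± 0.22 (adjusted p = 0.00314), and Eme1, a subunit of a structure-specific nuclease, by 0.85 ± 0.19 (adjusted p = 0.0169). Babam2, of a BRCA1-associated complex, was the 1 that fell (-0.40 ± 0.10, adjusted p = 0.0364) and was named after its value was seen. The count of 7 was 3 without overexpressing array A or B or wildtype array A, and 4 without overexpressing array C or wildtype array B.

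Of 21 other replication and damage checkpoint genes, 6 rose and 0 fell, against 4.52% and 5.07% of all probe sets. Their median was 0.33. H2ax, the histone variant phosphorylated at breaks, rose by 1.45 ± 0.14 (adjusted p = 0.000444), and averaged 1322 in overexpressing, 678 in knockdown and 481.5 in wildtype arrays. The phosphatase gene Cdc25a, which CHEK1 restrains, rose by 0.77 ± 0.09 (adjusted p = 0.000815), with 1283 in overexpressing, 717.2 in knockdown and 746.3 in wildtype arrays. The count of 6 was 4 without overexpressing array B and 9 without wildtype array C. Dtl, a ubiquitin ligase adaptor, rose by 1.95 ± 0.24 (adjusted p = 0.00103) and Tipin, of the fork protection complex, by 1.06 ± 0.13 (adjusted p = 0.00124). The apical kinase genes did not pass: Atr gave 0.56 ± 0.19 (adjusted p = 0.0892) and Atm 0.25 ± 0.26 (adjusted p = 0.662).

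Repair routes outside recombination were counted in the same way, beside the same 4.52% called higher and 5.07% called lower of all probe sets. Of 7 end joining genes 0 rose and 1 fell, with a median of -0.23, and Xrcc6, the Ku70 subunit gene, changed by -0.55 ± 0.12 (adjusted p = 0.0177). Msh6, which recognises mismatches, was 1 of 4 mismatch repair genes to rise (0.57 ± 0.11, adjusted p = 0.0107), with 0 lower. The median of these 4 was 0.44, above the 0.29 of the other recombination and 0.33 of the other checkpoint genes. Of 15 base excision and single-strand break repair genes 3 rose and 0 fell, with a median of 0.13. They were Apex1 at 0.69 ± 0.13 (adjusted p = 0.00843), and Lig1 and Fen1, which also join and trim replicated DNA, at 0.99 ± 0.22 (adjusted p = 0.0199) and 0.94 ± 0.24 (adjusted p = 0.0329). Of 16 nucleotide excision repair genes 0 rose and 1 fell, Ddb1 at -0.43 ± 0.07 (adjusted p = 0.00482), with a median of -0.10. The lists hold 4 to 29 measured genes, so 1 call in a list is a single gene and no result about a route. Differences between lists were not tested. The falls of Babam2 and Xrcc6 did not pass with a common array median, without the mean-variance trend, or without overexpressing array B, wildtype array A or wildtype array B. For Babam2 this was also so without overexpressing array A or C, knockdown array C or wildtype array C. The 3 base excision calls became 1 without overexpressing array A or C or wildtype array B.

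In knockdown over wildtype cells 0 genes of these 6 lists passed in limma, where 0.00442% and 0.00884% of all probe sets were called higher and lower. At an unadjusted p under 0.05, 7 of 29 other recombination genes were higher and 1 lower, and 6 of 21 other checkpoint genes were higher and 0 lower. Over all probe sets these shares were 5.94% higher and 4.94% lower. In overexpressing over knockdown cells 3 of 29 other recombination genes passed higher and 1 lower, and 5 of 21 other checkpoint genes passed higher and 0 lower. Of all probe sets, 3.43% were called higher and 4.14% lower there.

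**Figure D4:**
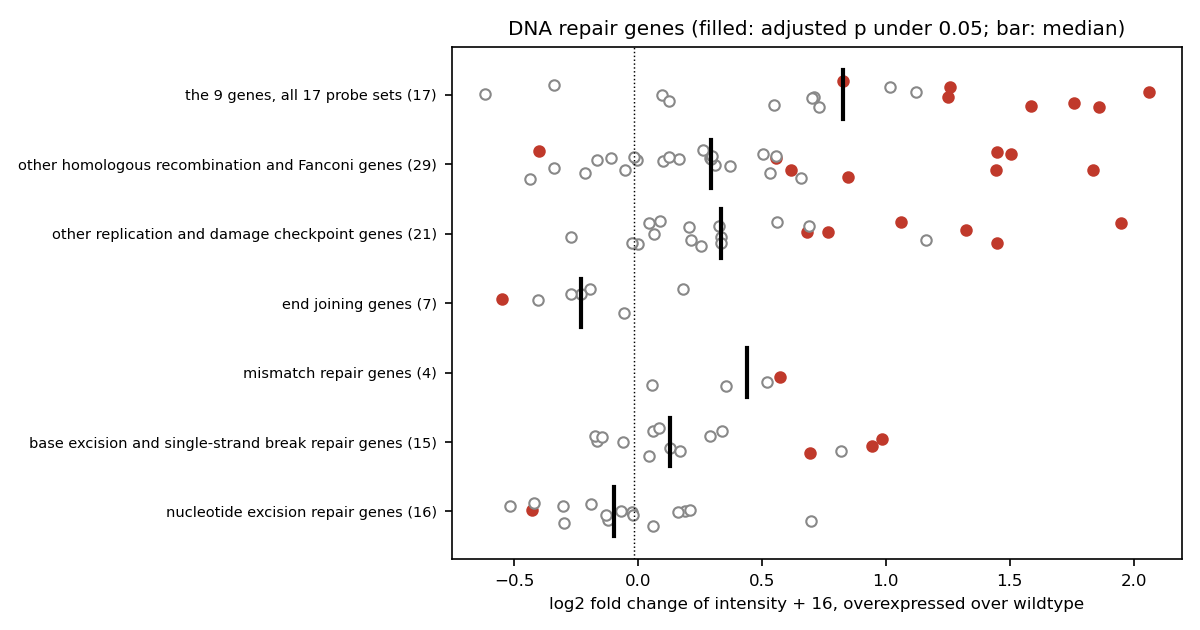
Log2 fold change in overexpressing over wildtype cells of the 17 probe sets and of the genes of 6 other repair and checkpoint lists (number measured in brackets), with filled points for an adjusted p under 0.05, bars for list medians and a dotted line for the median of all probe sets, -0.02. List medians run from -0.23 for end joining to 0.83 for the 17 probe sets.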

How the data were processed

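RNA of N1E-115 cells was measured on 9 arrays, 3 per group. The authors deposited 1 linear intensity per probe set and array, from a single-colour platform with Affymetrix-style names. Their software and background correction were not stated in the labels. Trimmed means (2% off each end) were 496.8 to 497.1, so arrays had been scaled. Of 22690 probe sets, 64 controls were left out. Values were used as log2(intensity + 16) and fitted with limma 3.58.1 in R 4.3.3 (lmFit, eBayes with a mean-variance trend) over all 9 arrays with a mean per group. Benjamini-Hochberg adjustment ran over 22626 probe sets. The number of arrays limits the precision. The fit was tried on simulated data, with changes only in probe sets brighter than the median and an independent spread for each value. Dim probe sets and shifts of whole arrays were thus not covered.

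All probe sets of the 9 genes are named. From each list, up to 4 called genes with the smallest p in overexpressing over wildtype cells could be named, and 1 such gene is not reported here. The 6 genes most like the mean profile were taken by Pearson r among probe sets brighter than the median. Members and lists were chosen with earlier results of these data known. Alternatives were other pseudocounts, normalizations, variance models, array weights, probe set filters, the letter as a block, and each array left out. Promoter windows are RefSeq's, and the motifs were searched on both strands.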

Additional observations from a re-analysis of the deposited data

How the results depend on the processing

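The count of probe sets that rose in overexpressing over wildtype cells was 7 with the letter as a replicate block, 4 without the mean-variance trend, and 4 to 8 with 1 array left out. Both 1424629_at and 1424630_a_at of Brca1, and Topbp1 and Blm, passed under each alternative in which they were tested. The median of 0.83 was 1.17 with a pseudocount of 1, 0.59 with 64, and 0.74 to 0.99 with 1 array left out. In knockdown over wildtype cells the median was 0.20 with a pseudocount of 64, and the count remained 0 throughout. In overexpressing over knockdown cells the count of 2 was 0 with a pseudocount of 1, 1 without the trend, and 0 to 5 with 1 array left out. Signs turned only in values far from the threshold, with 1 array left out. In overexpressing over wildtype cells Rad54l 1423123_at ran from -0.023 to 0.21. In knockdown over wildtype cells, ranges were -0.16 to 0.035 for Brca1 1427698_at, -0.065 to 0.68 for Rad54l 1423124_x_at, -0.47 to 0.24 for Chek1 1420031_at, -0.69 to 0.28 for Chek1 1449708_s_at and -0.020 to 0.13 for Mre11a. In overexpressing over knockdown cells they were -0.13 to 0.61 for Rad54l 1423124_x_at, -0.83 to 0.15 for Chek1 1420031_at and -0.0042 to 0.14 for Mre11a. The cause of these shifts was not tested. Deviations of same-lettered arrays from their group means had mostly positive r, from -0.012 to 0.10, with 1 of 9 pairs above 0.1. Between arrays of different letters and groups r ran from -0.12 to 0.099. Whether arrays of 1 letter shared a culture or day was not tested. The alternatives for the repair lists were added after the data were seen. Over all probe sets, the 1022 higher and 1147 lower calls of overexpressing over wildtype cells became 602 and 737 without the trend and 497 and 593 without wildtype array B.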
